A study of Mus musculus with 4 samples.

Results

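The transcripts described here are those of 8 secreted mediators through which regulatory T cells (Tregs) can restrain other cells. They are Il10, Il12a, Ebi3, Fgl2, Penk, Lgals1, Lgals3 and Lgals9. They were chosen by gene symbol, and all 8 were found among the 24421 genes of the count files. The study sequenced RNA of Tregs that had entered omental tumors or the spleen from the blood of a surgically joined partner, and asked how the cells of the 2 sites differ. The tumor-bearing mice were CD45.1-positive and had been injected intraperitoneally with the tumor line EG7.1.15. The partners lacked tumor and CD45.1, and the strain given for the sorted cells is B6 Foxp3-DTR/GFP, so the cells of both tissues carry the same Foxp3 reporter allele. Each pair stayed joined for 14 days. At day 14 after tumor injection, live CD45.1-, CD45.2+, B220-, CD4+, CD25+ and GFP+ cells were sorted from the tumor-bearing mouse of each pair. There were 2 libraries from omental tumor and 2 from spleen, from mouse 2 and mouse 3 in both tissues. The sort leaves out the Tregs of the tumor-bearing host itself, and no tumor-free mouse was sampled in these libraries.

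Interleukin-10, encoded by Il10, is a cytokine that dampens antigen-presenting cells and inflammation at barrier sites. Il12a and Ebi3 encode the p35 and EBI3 chains, which pair with each other in interleukin-35 and with other chains in interleukin-12 and interleukin-27. Fgl2 encodes a fibrinogen-like protein that acts on inhibitory Fc receptors of antigen-presenting cells. Penk encodes proenkephalin, the precursor of opioid peptides, which Tregs of several tissues are known to express. Lgals1, Lgals3 and Lgals9 encode galectins, lectins that bind galactose-containing sugars on surface glycoproteins and can curb or kill effector T cells.

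Il12a had the largest tissue difference of the 8, and Ebi3 encodes its partner chain, so the stretches before their transcription starts are shown. RefSeq gives Il12a 2 starts in build GRCm38.p6, the second downstream of the first, and counts per gene do not tell which was used. Each stretch holds the 250 bases before a start, 5′ to 3′. Capitals mark matches, on either strand, to a loose form of the NF-kB motif (GGG, any 5 bases, CC).
Il12a, upstream start (chr3:68690394-68690643, plus strand): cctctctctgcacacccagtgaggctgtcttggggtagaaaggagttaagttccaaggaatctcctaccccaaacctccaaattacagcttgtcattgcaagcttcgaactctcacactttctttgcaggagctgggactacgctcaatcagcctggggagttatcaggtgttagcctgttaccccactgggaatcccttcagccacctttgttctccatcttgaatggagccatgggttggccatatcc
Il12a, downstream start (chr3:68691174-68691423, plus strand): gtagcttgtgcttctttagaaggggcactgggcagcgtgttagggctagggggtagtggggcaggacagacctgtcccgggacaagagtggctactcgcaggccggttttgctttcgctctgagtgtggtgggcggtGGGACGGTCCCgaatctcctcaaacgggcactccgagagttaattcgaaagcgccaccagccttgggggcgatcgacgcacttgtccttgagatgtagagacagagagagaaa
Ebi3 (chr17:55952373-55952622, plus strand): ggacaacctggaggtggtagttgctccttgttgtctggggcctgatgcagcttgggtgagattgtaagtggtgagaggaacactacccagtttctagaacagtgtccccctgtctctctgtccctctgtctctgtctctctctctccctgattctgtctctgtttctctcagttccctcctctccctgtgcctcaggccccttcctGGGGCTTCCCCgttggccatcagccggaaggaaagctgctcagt
The first Il12a stretch held no match. The second held overlapping matches beginning 113 and 112 bases before the start, and the Ebi3 stretch held them 44 and 43 bases before it. This motif occurred in 45.8% of 32851 mouse promoters of the same length. The AP-1 motif TGANTCA (6.75% of promoters), the CRE motif TGACGTCA (1.55%), the E-box CACGTG (6.02%) and TTANGTAA, bound by NFIL3 (2.06%), were searched on both strands and were not in these 3 stretches.

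Levels are given as CPM, each library's counts scaled to 1000000 counts assigned to genes. Pairs of values are given for mouse 2 and then mouse 3, with omental tumor against spleen. These gene totals were 6660230 and 3764508 in the omental libraries of mouse 2 and mouse 3, and 9989005 and 13598631 in the spleen libraries. Foxp3, the transcription factor that defines Tregs, stood at 93.1 and 88.5 CPM in the omental and at 116 CPM in each of the spleen libraries. Il2ra, which encodes CD25, stood at 789 and 335 against 716 and 712 CPM. Cd4 stood at 430 and 120 against 581 and 810 CPM, so the sort markers were present in all 4 libraries. Nothing in the labels gives the age or sex of the mice.

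Across the tissues, 7 of the 8 mediators had positive fitted log2 fold changes (omental tumor over spleen), and Lgals9 had a negative one. None of the 8 passed an adjusted p of 0.05 in edgeR's quasi-likelihood test, in which 1.32% of the 16322 genes tested were called. Of those genes, 178 (1.09%) were higher and 37 (0.227%) lower in omental tumor. With 2 libraries per tissue, a mediator that missed the threshold may still differ between the tissues. Il10 and Il12a had an unadjusted p under 0.05, as did 9.01% of all genes. DESeq2 called 1 of the 8, Il12a, beside 2.19% of all genes, and so did edgeR with RLE factors, beside 1.53%. Limma-voom called 0 of the 8 and 0.999% of all genes. With the mouse as a replicate block, edgeR called Il12a alone, as higher, beside 1.89% of all genes (1.48% higher, 0.410% lower). With upper-quartile scaling, 188 genes were higher and 13 lower. The median log2 fold change was 1.10 over the 8 mediators and 0.11 over all genes tested, of which 53.6% were positive. In 5 mediators, Il10, Il12a, Ebi3, Fgl2 and Penk, both omental libraries stood above both spleen libraries, as did 21.6% of all genes. Scaled by TMM factors, this held for 4 of them, without Ebi3, and for 16.3% of all genes. TMM factors lowered the fitted log2 fold changes by a median of 0.26 over the genes tested, against scaling by gene totals alone.

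**Figure D1:**
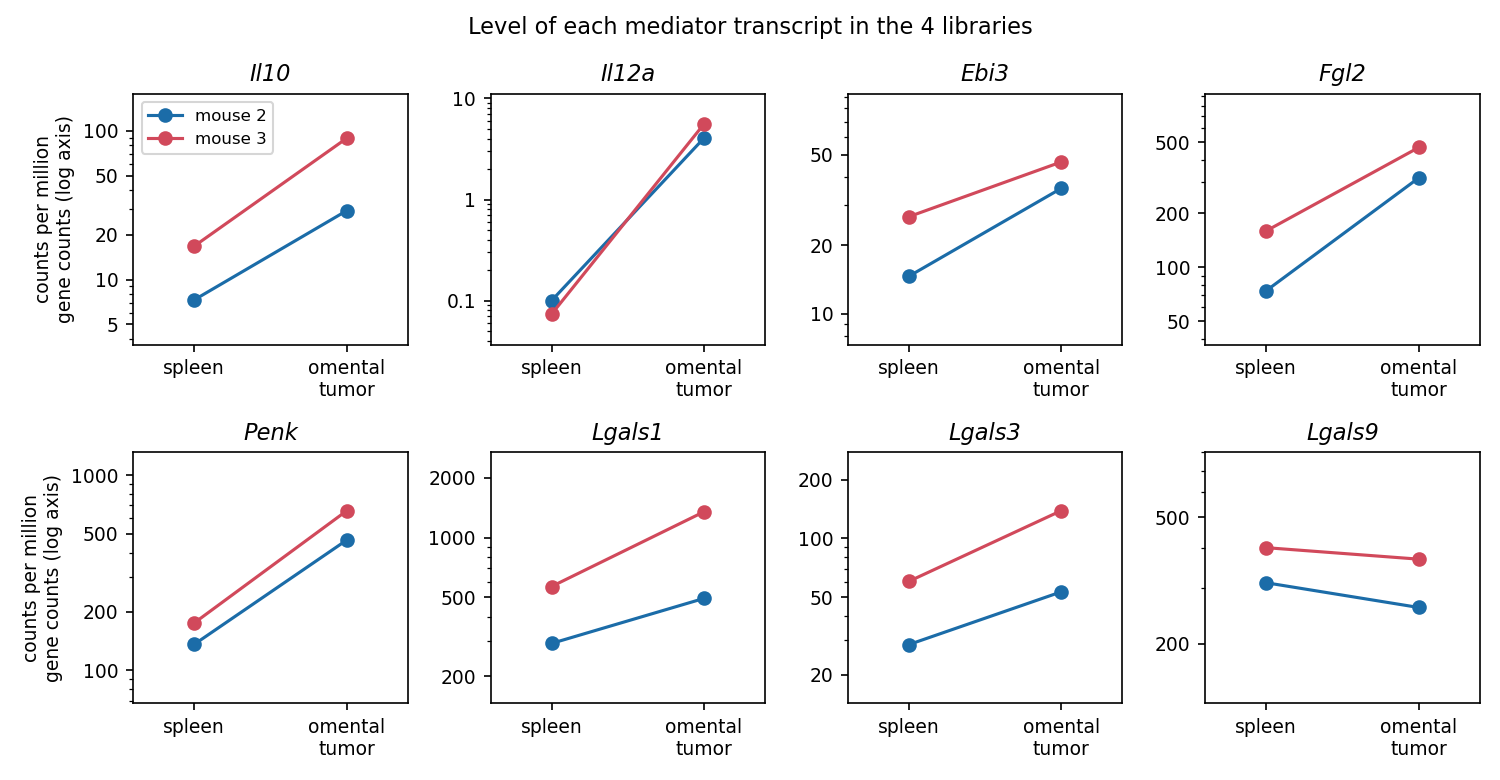
Level of each mediator in CPM (log axis) in spleen and omental tumor, 1 panel per gene, with a line joining the libraries of the same mouse. Lines climb from spleen to omental tumor in both mice in every panel except that of Lgals9, and Il12a spans the widest range, from 0.0735 to 5.58 CPM.

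Il12a lies on chromosome 3 (68690644 to 68698547, mm10). Its transcript was counted 27 and 21 times in the omental libraries of mouse 2 and mouse 3, and once in each spleen library. This corresponds to 4.05 and 5.58 CPM against 0.100 and 0.0735 CPM. The omental libraries were close to each other, and both stood far above the spleen libraries. The omental to spleen ratio was 40.5 in mouse 2 (95% exact conditional interval 6.67 to 1660) and 75.9 in mouse 3 (12.2 to 3140). Such intervals cover counting error only. The fitted log2 fold change was 5.33 (SE 1.67, adjusted p = 0.0873), and 0.27% of the 16322 genes had a larger one. With the replicate block it was 5.32 (SE 1.14, adjusted p = 0.000818). Il12a passed the low-count filter through its omental counts, so it could be tested only because it was high there. In bulk RNA, more cells with a transcript and more transcript per cell cannot be told apart.

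Ebi3, the partner chain (chromosome 17, 55952640 to 55957022), was counted 237 and 175 times in the omental and 146 and 363 times in the spleen libraries. Its levels were 35.6 and 46.5 CPM against 14.6 and 26.7 CPM. Each omental library stood above each spleen library, and the spleen libraries differed 1.83-fold. The ratio was 2.43 in mouse 2 (interval 1.97 to 3.01) and 1.74 in mouse 3 (1.45 to 2.09). The fitted log2 fold change was 0.66 (SE 0.77, adjusted p = 0.828). Ebi3 shares 270 exon bases with Gm16712, and the strand setting of the counting is not given, so reads there may have been left out or shared.

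Other chains of this cytokine family also had few counts. In no library was Il12b, the p40 chain of interleukin-12, counted less often than Il12a (27 and 21 against 1 and 1). Il12b had 71 and 21 omental counts against 84 and 3 splenic ones. Its levels of 10.7 and 5.58 CPM against 8.41 and 0.221 CPM overlapped between tissues. Il27, the p28 chain that joins EBI3 in interleukin-27, had 7 and 13 counts in omental tumor against 1 and 0 in spleen, too few to be tested. A count of 0 in the mouse 3 spleen library allows up to 0.221 CPM (3 counts). Il23a, the p19 chain of interleukin-23, had 13 and 9 against 7 and 0 counts (log2 fold change 2.49, adjusted p = 0.693). Per kilobase of exon, Ebi3 stood at 30.8 and 40.3 CPM in omental tumor and Il12a at 2.38 and 3.28 CPM, so the Ebi3 level was the higher of the pair. In spleen the same values were 12.7 and 23.1 for Ebi3 and 0.0589 and 0.0432 for Il12a.

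Il10 (chromosome 1, 131019845 to 131024974) was counted 194 and 336 times in the omental libraries and 73 and 228 times in the spleen libraries. Its levels were 29.1 and 89.3 CPM in omental tumor against 7.31 and 16.8 CPM. The tissues did not overlap, but mouse 3 stood above mouse 2 by 3.06-fold in omental tumor and 2.29-fold in spleen. The ratio within a mouse was 3.99 (interval 3.03 to 5.29) in mouse 2 and 5.32 (4.49 to 6.33) in mouse 3. The fitted log2 fold change of 1.98 (SE 0.79) had an adjusted p of 0.327, and 5.81% of all genes had a larger one. Leaving out the mouse 2 omental library gave 2.58, past the threshold (adjusted p = 0.0395) in a fit that called 3.59% of all genes. Leaving out that of mouse 3 gave 0.77 (adjusted p = 0.936). Leaving out the spleen library of mouse 2 or mouse 3 gave 1.35 (adjusted p = 0.661) or 3.36 (adjusted p = 0.472).

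Penk (chromosome 4, 4133531 to 4138819) was among the more abundant of the 8. It had omental counts of 3096 and 2474 and spleen counts of 1354 and 2378, or 465 and 657 CPM against 136 and 175 CPM. The libraries of each tissue lay within 1.41-fold of each other, and the tissues did not overlap. The ratio was 3.43 in mouse 2 (interval 3.22 to 3.66) and 3.76 in mouse 3 (3.55 to 3.98), the closest pair of ratios above 1 among the mediators. The fitted log2 fold change was 1.56 (SE 0.86, adjusted p = 0.600). Penk shares 233 exon bases with A830012C17Rik in the annotation, so reads there are open to the same limit as those of Ebi3.

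Fgl2 (chromosome 5, 21372642 to 21378374, within the body of Ccdc146 but sharing no exon bases with it) had omental counts of 2105 and 1758 and spleen counts of 741 and 2178. Its levels were 316 and 467 CPM against 74.2 and 160 CPM, with both omental libraries above both spleen libraries. The ratio was 4.26 in mouse 2 (interval 3.92 to 4.64) and 2.92 in mouse 3 (2.74 to 3.11). The fitted log2 fold change was 1.41 (SE 0.84, adjusted p = 0.641).

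**Figure D2:**
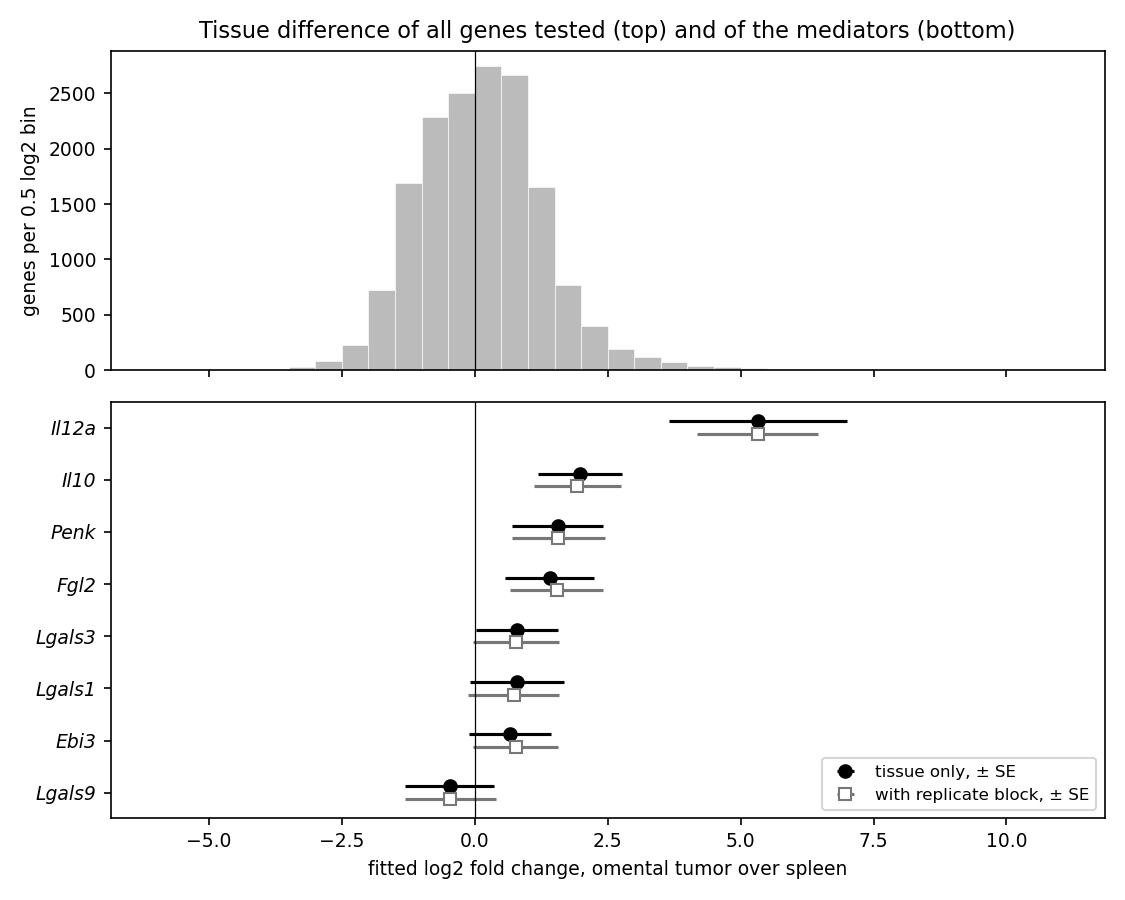
Top, number of genes per 0.5-wide bin of fitted log2 fold change (omental tumor over spleen) over all 16322 genes tested. Bottom, the 8 mediators with SE, fitted with tissue alone (filled) or with the replicate block (open), where Il12a stands at 5.33, Il10 at 1.98 and Lgals9 at -0.47.

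The galectin transcripts did not all lean the same way. Lgals1 (chromosome 15, 78926725 to 78930465), for galectin-1, stood at 494 and 1350 CPM in omental tumor against 293 and 567 CPM. The tissues overlapped, since the spleen library of mouse 3 was above the omental library of mouse 2, though each mouse was higher in omental tumor. Lgals3 (chromosome 14, 47367751 to 47386160), for galectin-3, showed the same order at lower levels, with 53.2 and 139 against 28.5 and 60.2 CPM. Lgals9 (chromosome 11, 78962974 to 78984946), for galectin-9, had omental levels of 260 and 369 CPM and overlapping spleen levels of 311 and 401 CPM.

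Within mouse 2 and mouse 3 the ratios of omental tumor to spleen were 1.69 and 2.38 for Lgals1, 1.86 and 2.31 for Lgals3, and 0.836 and 0.921 for Lgals9. The fitted log2 fold changes were 0.79 (SE 0.88, adjusted p = 0.825) for Lgals1 and 0.80 (SE 0.77, adjusted p = 0.802) for Lgals3. For Lgals9 it was -0.47 (SE 0.84, adjusted p = 0.891). None of these 3 differences exceeded the threshold, and their directions were not stable. With the mouse 3 omental library left out, Lgals1 turned to -0.29 and Lgals3 to -0.24. Lgals9 turned to 0.26 without the spleen library of mouse 3 and to 0.09 with upper-quartile scaling.

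Shares within a library do not depend on its scaling. Of the summed counts of the 3 galectins, Lgals1 made up 61.2% and 72.7% in the omental libraries of mouse 2 and mouse 3 and 46.4% and 55.2% in the spleen libraries. Lgals9 took 32.2% and 19.8% in omental tumor against 49.1% and 39.0%. Lgals3 made up 6.58% and 7.47% against 4.51% and 5.85%. For each of the 3 shares the tissues did not overlap, and Lgals9 was the largest share in the mouse 2 spleen library alone. The shares are parts of the same total, so these are not 3 separate results. In CPM all 3 galectins overlapped between the tissues. The exact (Clopper-Pearson) 95% intervals were at most a few points wide, such as 59.9% to 62.5% for Lgals1 in the mouse 2 omental library. For Lgals3 the intervals of the mouse 2 omental library (5.94% to 7.28%) and the mouse 3 spleen library (5.47% to 6.25%) overlapped. With 2 libraries per tissue these shares were not tested.

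**Figure D3:**
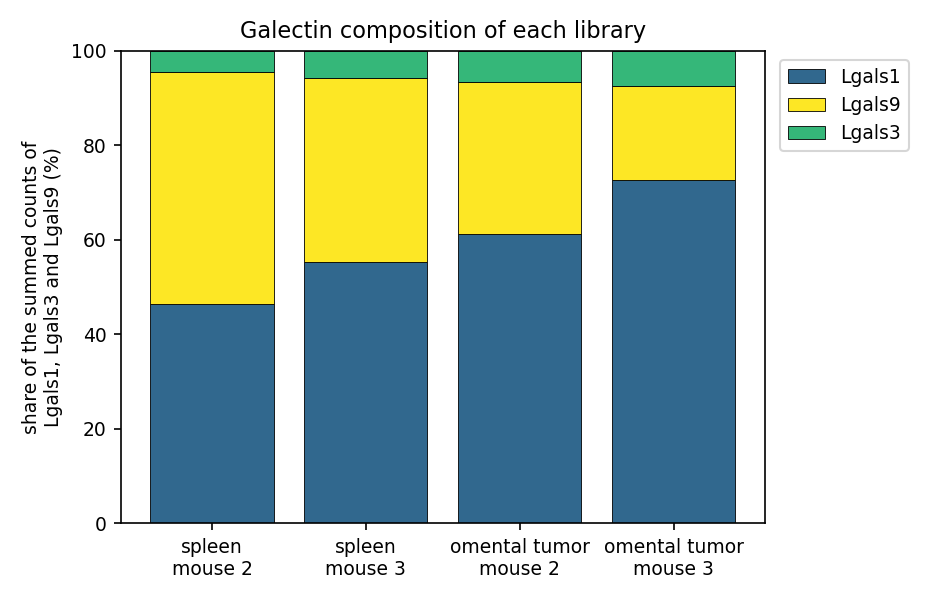
Share (%) of Lgals1, Lgals9 and Lgals3 in their summed counts, 1 stacked bar per library. The Lgals9 part is 49.1% and 39.0% in spleen and 32.2% and 19.8% in omental tumor, where the Lgals1 part is 61.2% and 72.7%.

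Per kilobase of exon, Lgals1 had the highest level of the 8 in every library (547 and 1496 CPM in omental tumor against 324 and 628 CPM). In omental tumor Penk came next at 284 and 402 CPM, then Lgals9 at 122 and 173 CPM and Fgl2 at 83.4 and 123 CPM. In spleen Lgals9, at 145 and 188 CPM per kilobase, stood above Penk, at 83.0 and 107. The order of these 2 transcripts thus differed between the tissues in both mice, and this order was not tested. Ebi3, Il10 and Lgals3 lay lower, with Il10 between 5.58 and 68.1 CPM per kilobase, and Il12a was lowest in all 4 libraries.

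The mediators also varied between the mice. In 7 of the 8, all but Il12a, mouse 3 stood above mouse 2 in both tissues, as did 14.0% of all genes tested. With TMM factors these were again 7 of the 8, beside 19.0% of all genes. The fold between mice was largest for Il10, Lgals1 and Lgals3 in omental tumor, at 3.06, 2.73 and 2.61, and was 1.31 to 1.48 for the other 5. Relative to Foxp3 counts in the same library, the omental to spleen ratios of mouse 2 and mouse 3 were 4.95 and 6.99 for Il10 and 4.26 and 4.93 for Penk. They were 5.29 and 3.83 for Fgl2, 3.02 and 2.29 for Ebi3, and 1.04 and 1.21 for Lgals9, which had been below 1 per gene count.

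Receptors and regulators of interleukin-10 gave 1 called gene of 14 tested, and 6 had positive log2 fold changes, with a median log2 fold change of -0.21. For this and the following lists, the values over all genes tested were 1.32% called, 53.6% positive and a median of 0.11. The receptor chains Il10ra (176 and 79.7 against 174 and 247 CPM) and Il10rb (101 and 128 against 152 and 129 CPM) had log2 fold changes of -1.06 and -0.55 (adjusted p = 0.756 and 0.858). The called gene was Nfil3, a basic leucine zipper factor that regulates Il10 in T cells. It stood at 17.0 and 116 against 0.901 and 2.79 CPM (log2 fold change 4.82, SE 0.90, adjusted p = 3.42e-05). Bhlhe40, which represses Il10 in T cells, was named for that role after its values were seen, and stood at 1160 and 605 against 51.2 and 113 CPM (3.06, adjusted p = 0.0612). It was called by DESeq2 (adjusted p = 0.00357) and by limma-voom (0.00431). Nfil3 missed the threshold when the mouse 3 omental library (2.66, adjusted p = 0.936) or the mouse 2 spleen library (4.10, adjusted p = 0.372) was left out.

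Of 8 tested partner and receptor genes of interleukin-35 and its relatives, 3 were positive, with a median of -0.74. None was called by edgeR, DESeq2 or limma-voom, with or without the replicate block in edgeR. An unadjusted p under 0.05 in edgeR was reached by 1, Il27ra, the interleukin-27 receptor chain. It stood at 236 and 75.7 against 478 and 577 CPM (-2.09, adjusted p = 0.371). Il6st, the shared gp130 chain, named for its role, stood at 399 and 51.3 against 474 and 326 CPM (-1.13, adjusted p = 0.748).

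Both Fc receptor genes of the Fgl2 list were called higher in omental tumor. Fcgr2b, the inhibitory receptor, stood at 82.6 and 54.2 against 7.41 and 3.60 CPM (log2 fold change 3.40, SE 0.84, adjusted p = 0.00644), and at 3.42 with the replicate block (adjusted p = 0.00996). Fcgr3, an activating receptor, stood at 13.4 and 139 against 5.91 and 6.69 CPM (3.34, SE 0.83, adjusted p = 0.00717), and missed the threshold with the block (2.52, adjusted p = 0.149). Leaving out the mouse 3 omental library brought Fcgr3 to a log2 fold change of 0.64 (adjusted p = 0.936). When the spleen library of mouse 2 or mouse 3 was left out, Fcgr2b kept log2 fold changes of 3.72 and 3.30 but missed the threshold (adjusted p = 0.474 and 0.503). So did Fcgr3, at 3.05 and 4.12 (adjusted p = 0.580 and 0.209), and limma-voom called Fcgr2b but not Fcgr3. Fcgr2b is typical of B cells and myeloid cells and Fcgr3 of myeloid and NK cells, and the levels of markers of these cells are described with the marker lists.

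In the enkephalin list, 8 of 9 genes tested were positive, with a median of 1.34, and 1 was called. It was Pcsk1, the prohormone convertase that cuts proenkephalin into active peptides. Pcsk1 stood at 108 and 40.4 against 3.90 and 4.12 CPM, with both omental libraries far above the spleen pair. Its log2 fold change was 3.89 (SE 0.86, adjusted p = 0.00107), and 3.76 with the replicate block (adjusted p = 0.00501). The call held when either omental library was left out (adjusted p = 0.0176 for mouse 2, 0.000188 for mouse 3) but not when either spleen library was (0.478 and 0.171), although the log2 fold change was then 3.63 and 4.25. Cpe, the carboxypeptidase that trims such peptides, stood at 6.46 and 5.84 against 3.90 and 2.21 CPM (0.77, adjusted p = 0.859). The opioid receptor genes Oprd1 (1.65 and 1.59 against 0.901 and 0.221 CPM) and Oprm1 (22.4 and 7.17 against 11.3 and 1.62 CPM) were low in counts and not called (adjusted p = 0.831 and 0.789).

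Of 8 other galectin genes listed, 4 could be tested and 0 were called in edgeR, DESeq2 or limma-voom, with 0 at an unadjusted p under 0.05 in each. Lgals8 stood at 82.7 and 73.6 against 93.9 and 122 CPM (-0.77, adjusted p = 0.808) and the galectin-3 binding protein gene Lgals3bp at 202 and 120 against 184 and 249 CPM (-0.75, adjusted p = 0.825). Among 10 counter-receptors and glycosylation enzymes, 1 was called, as lower, and 3 of the 10 had positive log2 fold changes, with a median of -0.37. The called gene was Cd7, a galectin-1 counter-receptor of T cells, at 9.01 and 1.86 against 35.5 and 38.6 CPM (-3.06, SE 0.85, adjusted p = 0.0286). Limma-voom did not call Cd7 (-3.20, adjusted p = 0.0833) and called St6gal1, a sialyltransferase named after its values were seen, in its place (-2.60, adjusted p = 0.0485). St6gal1 stood at 111 and 21.5 against 251 and 254 CPM (-2.25 in edgeR, adjusted p = 0.247). Havcr2, which encodes the galectin-9 receptor TIM-3, was named for its role and stood at 97.0 and 49.4 against 20.8 and 34.8 CPM (1.05, adjusted p = 0.737). Cd7 missed the threshold when the mouse 3 omental library (adjusted p = 0.789) or either spleen library (0.361 for mouse 2, 0.416 for mouse 3) was left out, and with upper-quartile scaling (0.147). Its log2 fold change in these fits ran from -3.34 to -2.48. Scaled by gene totals alone, the log2 fold changes were 5.14 for Nfil3, 3.64 for Fcgr2b, 3.59 for Fcgr3, 4.21 for Pcsk1 and -2.73 for Cd7, while none passed (adjusted p from 0.0720 to 0.425).

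**Figure D4:**
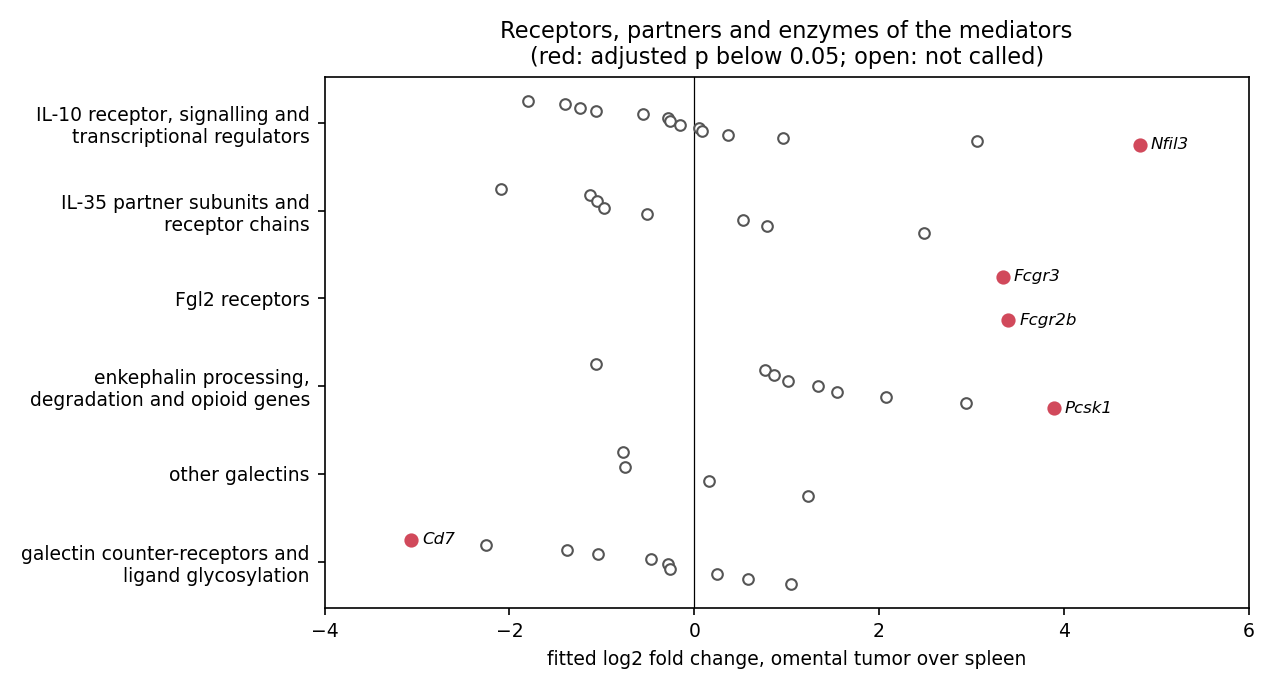
Fitted log2 fold change (omental tumor over spleen) of each tested gene in the 6 lists of receptors, partners and enzymes, with 1 dot per gene. Red dots are the 5 called genes, Nfil3 (4.82), Pcsk1 (3.89), Fcgr2b (3.40), Fcgr3 (3.34) and Cd7 (-3.06), and open dots were not called.

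Several of the mediators are also made by myeloid cells, and marker lists of other cell types were therefore summed in each library. The 12 macrophage and monocyte markers, all detected in every library, summed to 1370 and 1020 against 405 and 725 CPM, but most of the list did not lie higher in omental tumor. Of 11 tested, 5 had positive log2 fold changes, with a median of -0.34, and 2 were called. These were Lyz2, for lysozyme, at 286 and 312 against 7.01 and 49.6 CPM, and Cd14, a co-receptor for lipopolysaccharide, at 27.2 and 287 against 2.70 and 3.90 CPM. Ccr2, also made by Tregs, was the most abundant, at 846 and 218 against 189 and 373 CPM. The macrophage receptor genes Csf1r (44.3 and 15.1 against 71.5 and 88.2 CPM, log2 fold change -1.75) and Mrc1 (20 and 5.84 against 23.9 and 30.4 CPM, -1.40) were not called. Negative values were also fitted for Adgre1 (-0.85), C1qa (-0.89), C1qb (-0.34) and C1qc (-0.52). Positive values were fitted for Cd68 (20.6 and 60.6 against 11.9 and 19.5 CPM, 1.07) and Fcgr1 (3.90 and 25.5 against 1.10 and 2.43 CPM, 2.74). Both omental libraries stood above both spleen libraries for these 2 genes, and neither was called.

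Neutrophil markers (8 of 9 in the files) summed to 134 and 1460 against 97.6 and 38.5 CPM, and their tissue difference lay mostly in mouse 3. Of 6 tested, 6 had positive log2 fold changes, with a median of 3.55. The calgranulin genes S100a8 (0.150 and 432 against 6.41 and 7.65 CPM) and S100a9 (1.80 and 499 against 9.31 and 6.03 CPM) stood below spleen in mouse 2 and far above it in mouse 3. Csf3r, the G-CSF receptor gene, stood at 32.0 and 290 against 22.3 and 3.90 CPM. These 3 genes and Retnlg were called, and none of the 4 with the replicate block (adjusted p from 0.0978 to 0.837). Cxcr2 stood at 78.4 and 183 against 48.7 and 16.7 CPM, and Mmp8 at 15.3 and 12.5 against 7.51 and 3.16 CPM. Both were higher in omental tumor in both mice and were not called. The granule enzyme gene Elane was at 0 in all 4 libraries, and Mpo stood at 2.25 and 0 against 0.4 and 0.588 CPM. Dendritic cell markers summed to 449 and 134 against 69.2 and 31.7 CPM, with 8 of 8 positive, a median of 1.42 and 0 called. Much of this sum came from H2-Ab1 alone, at 326 and 81.8 against 28.9 and 18.1 CPM. The mouse 3 omental library held the highest neutrophil sum and also the highest level of every mediator except Lgals9. The part of these markers in the differences of the mediators and of both Fc receptor genes was not tested.

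The Treg and T lineage list summed to 7100 and 6730 against 7270 and 9260 CPM. Of 13 tested, 1 had a positive log2 fold change, with a median of -0.64, and 0 were called. The positive gene was Ctla4, at 1420 and 1350 against 400 and 614 CPM. B and plasma cell markers summed to 633 and 31.9 against 203 and 191 CPM, and fibroblast markers to 206 and 17.8 against 19.8 and 6.25 CPM. The fibroblast list held 1 called gene, Col3a1, at 104 and 2.13 against 2.70 and 1.47 CPM. With the replicate block Col3a1 was not called (adjusted p = 0.167). Endothelial markers summed to 137 and 66.9 against 226 and 207 CPM, a sum set by Pecam1 (91.6 and 32.7 against 212 and 205 CPM), which T cells also express. The other 3 endothelial markers tested had positive log2 fold changes, 2.76 for Cdh5, 1.58 for Kdr and 2.55 for Vwf, and Vwf passed the threshold under the replicate block (adjusted p = 0.0319). Markers of immature T cells summed to 81.2 and 66.4 against 52.7 and 37.7 CPM. Lists of NK and innate lymphoid cells, mast cells, mesothelium, fat cells, and red cells and platelets stayed under 50 CPM in all 4 libraries. The fat cell list held 1 called gene, Fabp4, at 2.70 and 46.5 against 1.90 and 1.03 CPM (3.87, adjusted p = 0.00981). With the replicate block Fabp4 was not called (adjusted p = 0.119). Early response genes that cell handling can induce summed to 1950 and 2150 against 1020 and 177 CPM. Of 10 tested, 8 had positive log2 fold changes, with a median of 1.96, and 2 were called as higher. These were Atf3 (6.36, adjusted p = 5.97e-08) and Dusp1 (3.90, adjusted p = 0.00192). With the replicate block 3 were called, Atf3, Fosb and Hspa1a. The part of these early response genes in the mediators' differences was not tested.

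**Figure D5:**
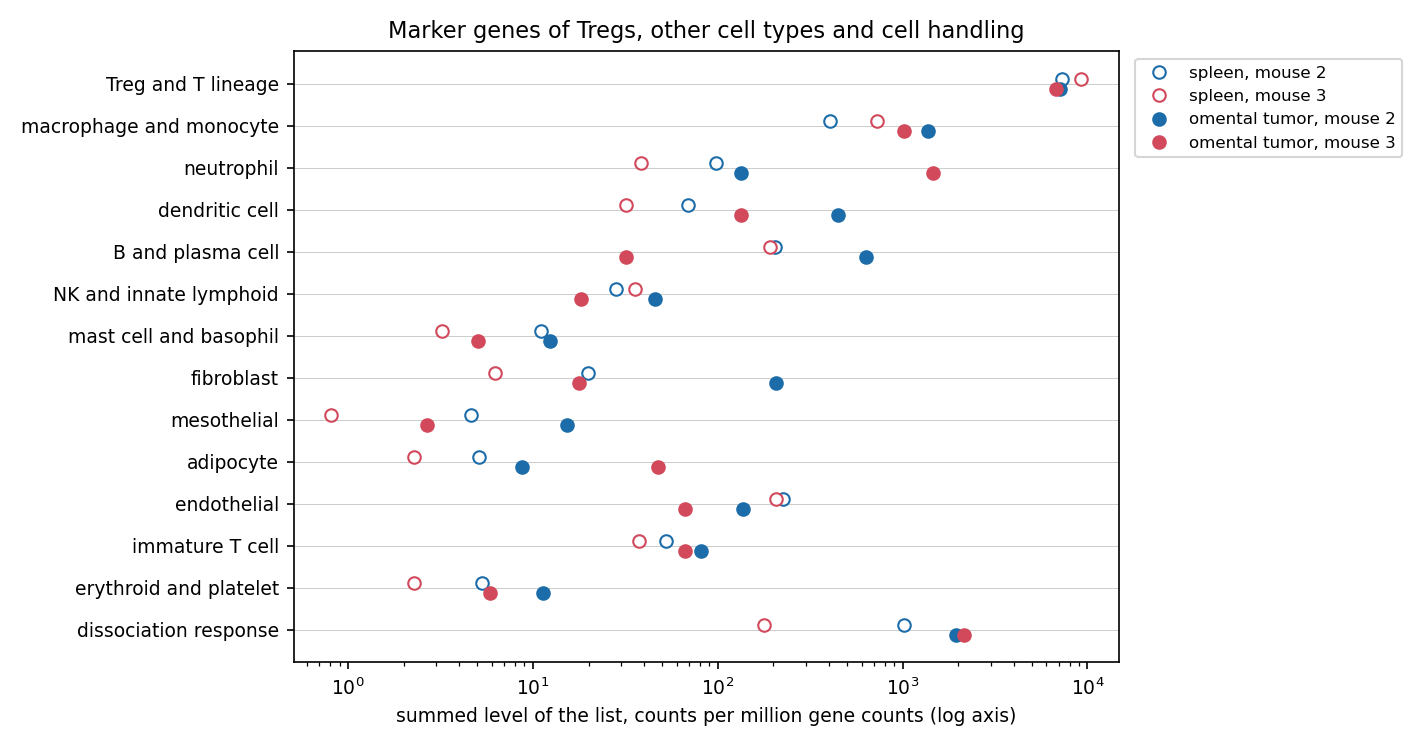
Summed level of each marker list in CPM (log axis), with open circles for spleen, filled circles for omental tumor, blue for mouse 2 and red for mouse 3. The neutrophil list reaches 1460 CPM in the omental library of mouse 3 against 134 CPM in that of mouse 2, while the Treg and T lineage list lies between 6730 and 9260 CPM in all 4.

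The genes whose profiles lay closest to each mediator were found by Euclidean distance between centred log2(CPM + 1) values over the 4 libraries, among 16314 tested genes. For Il10 they were Bcl2a1d (distance 0.05) and Fabp5 (0.19), and 9 genes lay within 0.5. For Fgl2 they were Tpi1 (0.24) and Tmem176b (0.27), with 18 genes within 0.5. For Il12a they were Hsbp1l1 (0.15) and Chrne (0.20), with 28 genes within 0.5. The added 1 narrows differences among levels under 1 CPM, so these 2 are not copies of the Il12a profile. In spleen Hsbp1l1 stood at 0.601 and 0.662 CPM and Chrne at 0.601 and 0.441 CPM, against 0.100 and 0.0735 CPM for Il12a. Profiles like that of Penk were less rare, with 71 genes within 0.5, the closest being Plxnd1 (0.05) and Dnajc12 (0.17). Ebi3 had 191 such neighbours, led by Glrx and Clec4a3. Lgals1 had 157, led by Adap1 and Wbp5, and Lgals3 had 116, led by Hmgb2 and Adap1. Lgals9 had 827, led by Sptssa and Ncf4. With 4 libraries, closeness describes these libraries alone, and Bcl2a1d has near-identical copies whose reads may be split.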

How the data were processed

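Each library was deposited by the authors as raw read counts for each gene symbol. The submitters' processing notes name HTSeq, SAMtools, TopHat2 and Trim Galore, and build mm10. The strand setting was not given in the sources used here, nor were versions or the annotation. Per the labels' protocols, cDNA was made with SMART-seq v4 and libraries with Nextera XT. The 5 HTSeq summary entries were left out, and genes held 17.1% and 22.2% of all entries in omental tumor and 24.9% and 46.0% in spleen.

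Tests were run with edgeR 4.0.16 under R 4.3.3 (filterByExpr with a minimum count of 10, TMM factors, estimateDisp, glmQLFit and glmQLFTest at default settings), with tissue as the only term and 2 residual degrees of freedom. P-values were adjusted by Benjamini-Hochberg over all 16322 genes at 0.05, and this test gave every adjusted p printed with no other tool's name. SE was taken as |log2 fold change| over the root of the F statistic. The prior degrees of freedom were infinite, so p does not measure a gene's own spread between mice. Listed levels are CPM by gene totals. Exon lengths and coordinates come from GENCODE M21, promoter stretches from RefSeq, trimmed where a GENCODE exon began. The script was tested on simulated counts with a spread shared by all genes. It called 34.8% of genes with a true 16-fold difference, 1.08% of those with a 4-fold one and 0.00649% of unchanged genes. At that spread, most differences of such size would miss the threshold.

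Mouse numbers in the labels mark the same animal in both tissues and so give the pairing. Across genes, deviations of same-numbered libraries from their tissue's mean correlated at 0.163. Blocking on the mouse (replicate block) was an alternative. Others were RLE and upper-quartile factors, gene totals alone, no filter, DESeq2 1.42.0, limma-voom (limma 3.58.1), a minimum count of 50, an adjusted p of 0.01 and leaving out each library, where the lone library's spread was taken from the pair of the other tissue. The non-legacy form of glmQLFit was added after seeing the data.

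The members, lists and tests were chosen with earlier results of these data known. Named genes were the 8 members, every called gene of a list or else its 2 lowest p-values, the 2 most abundant markers of a list where given, the sort markers, and the 2 nearest profiles. Il12b, Il27, Il10ra, Il10rb, Bhlhe40, Havcr2, Oprd1, Oprm1, Il6st and Cpe were named for their role after their values were seen. St6gal1 and markers beyond the rule were also chosen after their values were seen.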

Additional observations from a re-analysis of the deposited data

How the results depend on the processing

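Of the 8 mediators, 0 were called in the edgeR fit, and 1, Il12a, with RLE factors (log2 fold change 5.50, adjusted p = 0.0190), with DESeq2 (5.71, 0.00947) and with the replicate block (5.32, 0.000818). The block changed no other call among the mediators. List genes here are those of the lists of receptors, partners and enzymes, and among the called ones the block ended the call of Fcgr3. Leaving out each library in turn gave 0 to 1 called mediators, the 1 being Il10. Of the list genes, 5 were called, against 0 with gene totals alone, 0 with a minimum count of 50, and 0 to 7 without each library in turn. Over all genes, calls numbered 215, against 249 with RLE factors, 163 with limma-voom, 26 with gene totals alone, 3 with a minimum count of 50, 358 with DESeq2 (2848 genes without an adjusted p), and 44 to 606 without each library. The non-legacy fit, chosen after seeing the data, gave 233 and called no mediator. Il12a did not pass the minimum count of 50. Over the alternatives that gave a value, log2 fold changes ran from 4.91 to 5.85 for Il12a, 0.77 to 3.36 for Il10, 1.13 to 2.29 for Penk, 0.80 to 2.64 for Fgl2 and 0.12 to 1.71 for Ebi3. For Lgals1 they ran from -0.29 to 1.99, for Lgals3 from -0.24 to 2.08 and for Lgals9 from -0.91 to 0.26. Lgals1 and Lgals3 turned negative without the omental library of mouse 3. Lgals9 turned positive with upper-quartile factors (0.09) and without the spleen library of mouse 3 (0.26). Over all galectin genes the mean Lgals1 share in spleen was 44.4%, against 50.8% over the 3 galectins. With 1 count in each spleen library, depth sets the width of the Il12a ratio. The causes of these changes were not tested.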
